A study of Mus musculus with 7 samples.

Results

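The cytosolic ribosomal protein genes were described in bulk RNA-seq of preleptotene-enriched testes from 4 wild-type and 3 Meioc-null pups. Members were chosen by symbol alone, as genes named Rps or Rpl with a number, plus Rpsa, Rplp0, Rplp1 and Rplp2, without the S6 kinase genes and Rps19bp1. This gave 85 of the 21928 genes in the deposited tables, of which 77 were core members (31 of the small, 40S subunit and 46 of the large, 60S subunit) and 8 were paralogs, that is, extra copies of a core gene with a coding sequence of their own. All 77 core members and 7 paralogs passed a filter on TPM (transcript copies scaled to a fixed total, a level per transcript length), which asked for 1 TPM or more in 3 or more of the 7 libraries, as did 13630 genes in all. Rps27rt did not, and was listed at 0 counts in every library.

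All pups were of the C57BL/6N strain and had their spermatogenesis synchronized. Daily WIN18446, which blocks the making of retinoic acid, was given from P2 to P8 (0.1 mg per gram), and a single retinoic acid dose followed on P9 (0.0125 mg per gram). The wait from that dose to collection was 6.75 days, which brings the delayed spermatogonia to the preleptotene stage together, and each library came from 1.5 testes of 1 pup. The null pups carried the Meioc tm1.1Dpc allele, which removes Meioc function from every cell of the animal, and the allele had been backcrossed to C57BL/6N. MEIOC works on germ cell transcripts around meiotic entry, with YTHDC2, a helicase, and RBM46, which binds RNA. Whole testes were used, so somatic cells are in every library, and fewer cells of a type cannot be told apart from less RNA per cell. The question here is how the transcripts of the translation machinery compare between the genotypes at this stage.

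Each cytosolic ribosome contains 1 copy of nearly every ribosomal protein, joined to ribosomal RNA in a small subunit that decodes the mRNA and a large subunit that forms the peptide bond. The mRNAs of these proteins are short and abundant. They begin with a run of pyrimidines, the terminal oligopyrimidine (TOP) sequence, through which mTOR signalling and the protein LARP1 set their translation and stability together. In the male germ line several ribosomal proteins have a paralog: Rpl10l, for example, stands in for X-linked Rpl10 once the X chromosome is silenced in meiosis, and Rpl39l is used in spermatocytes and spermatids.

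The libraries held between 12537852 and 20552702 estimated counts. Meioc itself, summed over its transcripts, was at 626.1 ± 109.9 CPM (counts scaled to a common library size, SD, n = 4) in wild type and 369.8 ± 61.9 CPM (SD, n = 3) in the null, and its lowest wild-type value of 466.3 CPM lay above its highest null value of 411.7 CPM. These sums do not separate the deleted part of the gene from the rest. The germ cell markers Ddx4 and Dazl were expressed in every library, with a summed level of 1230 to 1390 CPM in wild type and 836 to 971 CPM in the null. The Sertoli markers Sox9 and Cldn11 summed to 549 to 590 CPM in wild type and 561 to 597 CPM in the null. Other germ cell markers differed without overlap too: Kit and Ccnd2 of type A spermatogonia summed to 254 to 317 CPM in wild type and 219 to 238 CPM in the null, and Meiob of leptotene and zygotene cells was at 3.69 to 7.55 against 1.41 to 1.97 CPM. In the other direction, 4 markers of undifferentiated spermatogonia summed to 105 to 125 CPM in wild type and 141 to 228 CPM in the null, and Piwil1 of pachytene cells was at 2.31 to 4.26 against 4.28 to 6.86 CPM. Stra8, the preleptotene marker, ranged from 126 to 409 CPM in wild type and from 77.1 to 157 CPM in the null, so its groups overlapped. The summed markers of each somatic and erythroid list overlapped between the groups as well. Of 24 cell type markers, 3 were called higher and 1 lower in wild type, where 7.77% and 3.33% of all tested genes were. The part of the markers in the results below was not tested. Null replicate 2 stood apart from the rest: the Pearson correlation, across genes, between log2 transcript length and each gene's deviation from its mean over the libraries was 0.348 there and between -0.146 and 0.0657 in the other 6 libraries.

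Ribosomal protein transcripts were among the more abundant in these testes. The median TPM over the 7 libraries was 918.9 for the core members and 18.5 for all tested genes. Rps24, which is needed for maturation of 18S ribosomal RNA, had the highest mean at 7874 TPM, followed by Rpl41, the gene of the smallest ribosomal protein, at 5200 TPM. The lowest were Rps20 at 85.9 TPM, Rpl5 at 96.5 TPM and Rpl11 at 122.5 TPM. RPL5 and RPL11 together carry the 5S ribosomal RNA into the large subunit. The products of most core members are needed in equal number in each ribosome, whereas their levels spanned from 85.9 to 7874 TPM. TPM divides by transcript length, listed as 3706 bases for Rps20, 2045 for Rpl5 and 833 for Rpl11, against a core median of 775. In CPM, Rps20 had a mean of 178.1 in wild type and 137.4 in the null, above Rpl36 at 45.2 and 27.3. The part of length in the span of TPM was not tested.

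The core members made up between 2.17% and 2.85% of every library. Their share of the estimated counts was 2.73%, 2.85%, 2.60% and 2.55% in wild-type replicates 1 to 4 and 2.57%, 2.17% and 2.56% in null replicates 1 to 3, or 2.69% ± 0.135 (SD, n = 4) against 2.43% ± 0.232 (SD, n = 3). The groups overlapped, and the difference of 0.252 percentage points was of about the size of the spread among the null libraries, with null replicate 2 the lowest of all. On TPM, which weighs short transcripts more, the order was not kept: the share was 10.6% ± 0.576 in wild type and 10.7% ± 0.447 in the null.

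Most core members were slightly more abundant in wild-type than in Meioc-null testes. The fold change, given throughout as wild type over Meioc-null, had a median of 0.23 on the log2 scale over the 77 core members, which is a 1.17-fold difference, against -0.0065 over all 13630 tested genes. It was above 0 for 74 of the 77. In the quasi-likelihood test of edgeR, with the p-value adjusted over all tested genes and a threshold of 0.05, 17 core members (22.1%) were called higher and 1 was called lower in wild type. The background was 7.77% of all tested genes called higher and 3.33% called lower, 1059 and 454 genes. For 38 core members (49.4%) every wild-type library lay above every null library in CPM, where 15.4% of all tested genes did so, and for 1 every wild-type library lay below, where 10.8% of all tested genes did so. The small and the large subunit were alike in these counts, with 7 of 31 and 10 of 46 called higher and medians of 0.23 and 0.24.

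The single libraries bear on these counts. Null replicate 2 was the lowest of the 7 libraries for 65 of the 77 core members and for 16 of the 17 called higher, and wild-type replicate 2 was the highest for 58. The median core level, as log2 distance from each gene's mean over the libraries, was 0.0756, 0.212, 0.0961 and 0.0426 in wild-type replicates 1 to 4 and -0.0445, -0.30 and -0.0953 in null replicates 1 to 3. All wild-type medians were therefore above all null medians, and wild-type replicate 4 and null replicate 1 were nearest to each other. Leaving out a library left the median fold change positive, at 0.16 without null replicate 2 and 0.30 without null replicate 1, but the calls moved both ways. With edgeR, 1 core member was called higher without null replicate 2 and 5 without wild-type replicate 4, where 2.17% and 3.15% of all tested genes were. None (0) was called without wild-type replicate 2, wild-type replicate 3 or null replicate 3, where 1.86%, 1.74% and 0.83% of all tested genes were called higher. In the other direction, 20 were called higher without wild-type replicate 1 and 28 without null replicate 1 (10.6% and 9.35% of all tested genes), and both fits kept all 18 calls of the full fit. At an unadjusted p under 0.05 the full fit of edgeR had 50 core members higher (64.9%), against 17.4% of all tested genes. The fits without wild-type replicate 2, wild-type replicate 3 and null replicate 3 had 29, 40 and 46, or 37.7%, 51.9% and 59.7%, against 14.5%, 14.1% and 14.3% of all tested genes. The number of all tested genes called fell from 1513 to 296, 275 and 131 in these last 3 fits.

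**Figure D1:**
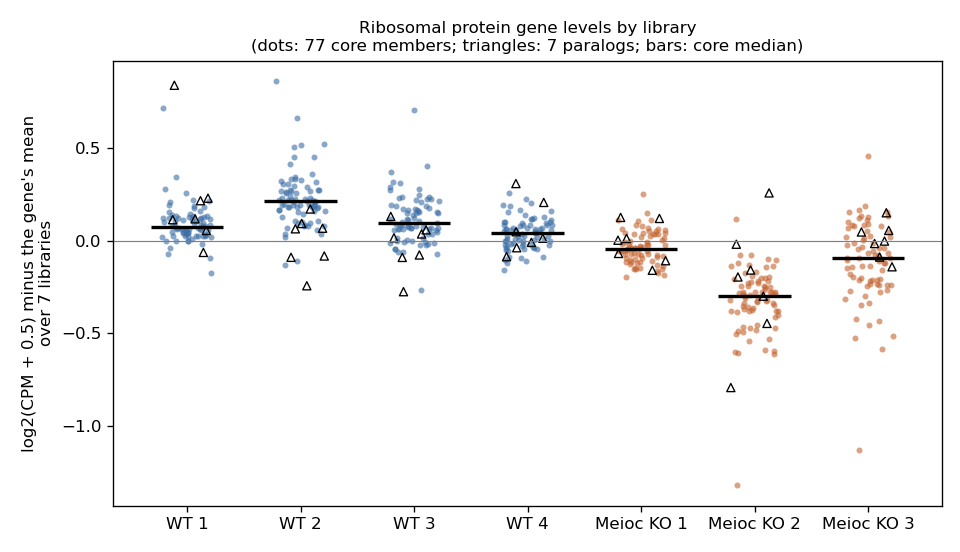
The level of each of 84 ribosomal protein genes in each library, as log2(CPM + 0.5) minus the gene's mean over the 7 libraries, with wild-type libraries in blue, Meioc-null libraries in orange, core members as dots, paralogs as triangles and the core median as a bar. The 4 wild-type medians lie between 0.0426 and 0.212 and the 3 null medians between -0.30 and -0.0445, with null replicate 2 the lowest.

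**Figure D2:**
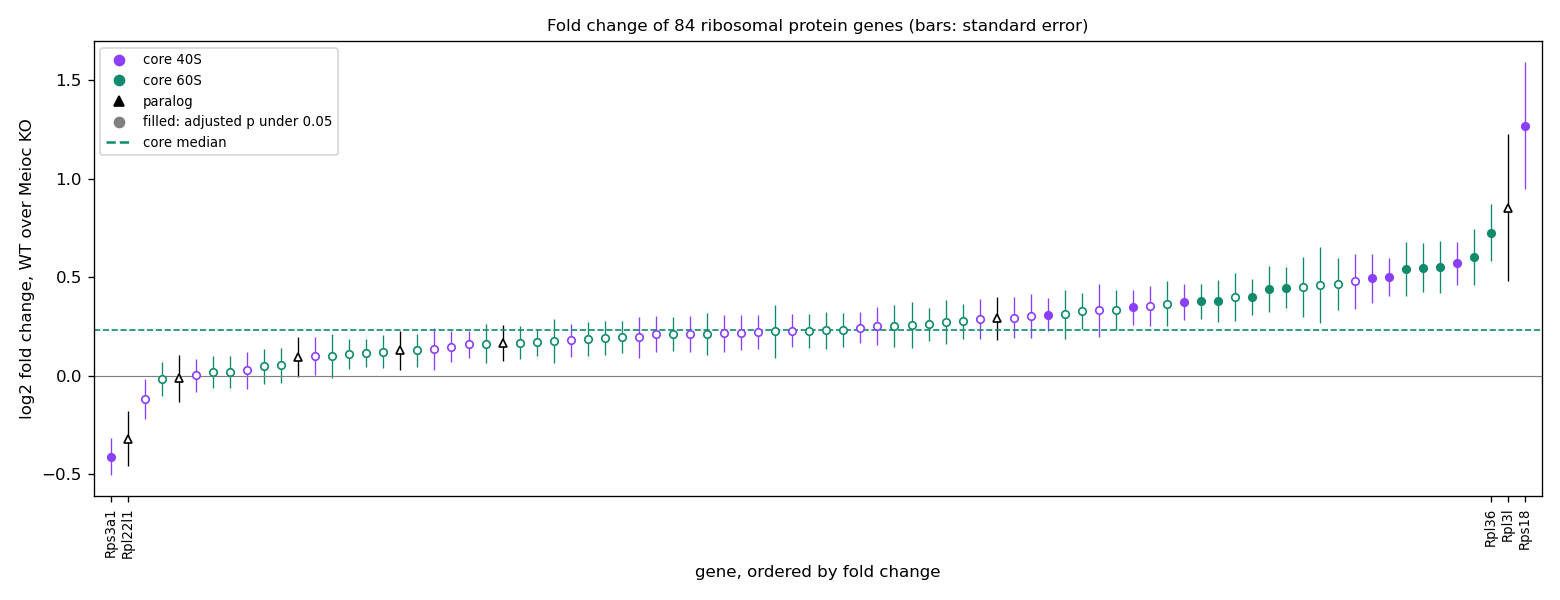
The log2 fold change, wild type over Meioc-null, of each of the 84 tested members with its standard error, ordered by size, with 5 of the genes named on the axis; filled symbols mark an adjusted p under 0.05 in edgeR. The values run from -0.41 for Rps3a1 to 1.27 for Rps18, and the dashed line marks the core median of 0.23.

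Among the small subunit genes, 7 were higher in wild type. Rps18 had the largest change of all members and is described with its copy below. Rps28, whose product sits where the mRNA leaves the small subunit, was at 196.8, 219.8, 206.0 and 197.3 CPM in wild type and at 159.3, 124.2 and 151.3 CPM in the null. The groups did not overlap, the log2 fold change was 0.50 ± 0.10 (SE, adjusted p = 0.0175), and it was called in 4 of the 7 fits that leave out a library, the most of any member. Among the others were Rps27, which encodes a zinc-binding protein, at 0.49, Rps20, of the head of the small subunit, at 0.37 and Rps15a at 0.31.

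Of the large subunit genes, 10 were higher in wild type. Rpl36 was the most changed, at 46.0, 51.8, 46.8 and 36.3 CPM in wild type against 32.2, 23.5 and 26.2 CPM in the null, with a log2 fold change of 0.73 ± 0.14 (SE, adjusted p = 0.018). Every wild-type library was above every null library. Rpl7a was at 454.0, 488.2, 460.0 and 434.8 CPM in wild type and at 391.0, 251.9 and 263.9 CPM in the null, with a log2 fold change of 0.60 ± 0.14 (SE, adjusted p = 0.0286). The gap was wide for null replicates 2 and 3 and narrow for null replicate 1. Rpl17, whose product lines the tunnel through which the new peptide leaves, was at 395.5, 446.6, 367.5 and 337.8 CPM against 299.4, 214.3 and 277.5 CPM, with a fold change of 0.55 ± 0.13 (SE, adjusted p = 0.0283). Among the others were Rpl26 at 0.54, Rpl41 at 0.45, Rpl37a at 0.44, Rpl10a, whose product forms the L1 stalk, at 0.40, Rplp1 at 0.38 and Rpl12 at 0.38.

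Rpl10a and Rpl41 were among the more abundant called members. Rpl10a was at 410.4, 459.7, 419.2 and 401.5 CPM in wild type and at 356.6, 286.6 and 317.6 CPM in the null (adjusted p = 0.0254). Rpl41 was at 740.5, 776.6, 763.9 and 696.0 CPM against 634.3, 463.9 and 540.7 CPM (adjusted p = 0.0267). In both the groups did not overlap, and null replicate 1 was nearest to wild type.

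Rps3a1 was the only core member called lower in wild type. It encodes a small subunit protein near the mRNA exit and was at 525.5, 540.7, 493.4 and 545.8 CPM in wild type and at 641.8, 643.9 and 815.2 CPM in the null. Every null library was above every wild-type library, and the log2 fold change was -0.41 ± 0.10 (SE, adjusted p = 0.0265). It was called in 3 of the 7 fits that leave out a library. Of its 31-base words, 76.9% were also found in transcripts of other annotated genes, none of them listed in the deposited tables. The same share was 94.1% for Rpl36 and 85.0% for Rpl7a, which were called higher, and how their reads were assigned was not tested.

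The remaining members at the low end did not pass the test. Rps2, at the mRNA entry of the small subunit, had a log2 fold change of -0.12 ± 0.10 (SE, adjusted p = 0.448). Rpl4, of the peptide exit tunnel, was at -0.018 ± 0.087 (SE, adjusted p = 0.911), Rpsa, also known as the laminin receptor, at 0.00096 ± 0.083 (SE, adjusted p = 0.995), and Rpl14 at 0.017 ± 0.081 (SE, adjusted p = 0.907). For Rpsa the wild-type libraries spanned 776.3 to 855.4 CPM and the null libraries 738.6 to 898.9 CPM. Rps24, the member with the highest TPM, was at 1220, 1395, 1190 and 1294 CPM in wild type and at 1077, 969.2 and 1297 CPM in the null, and did not pass either (0.19 ± 0.10, SE, adjusted p = 0.239). Rpl5 had a log2 fold change of 0.19 ± 0.086 (SE, adjusted p = 0.166) and Rpl11 of 0.46 ± 0.19 (SE, adjusted p = 0.143). Rpl11 ranged from 49.6 to 83.8 CPM in wild type and from 36.8 to 55.4 CPM in the null, so its groups overlapped.

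Transcript length moved with the fold change. The core members are short, with a median length of 775 bases against 2730 for all tested genes, and 69 of the 77 are under 1200 bases. Over all tested genes the Pearson correlation of log2 fold change with log2 length was -0.165 (across 13630 genes, which share the 7 libraries and are not replicates), and over the 77 core members it was -0.332. Tested genes outside the family had a median log2 fold change of 0.21 at 400 to 600 bases, 0.17 at 600 to 800 bases and 0.11 at 800 to 1200 bases. The core medians at the same lengths were 0.36, 0.23 and 0.22, from 21, 18 and 26 genes. Under 400 bases the order was the other way, with a median of 0.62 over 44 genes outside the family and of 0.27 over 4 core members.

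When a smooth trend of fold change with length was removed in each library, the core median became 0.10 against -0.019 for all tested genes. Under this fit 8 core members (10.4%) were called higher and 1 (1.3%) lower, against 8.52% and 4.28% of all tested genes. Rps18, Rps20, Rpl36, Rpl7a, Rpl17, Rpl10a and Rpl12 were among those that kept the call as higher, and Rps3a1 kept the call as lower. Rps20, at a listed 3706 bases the longest core member, was at 0.37 in the main test and at 0.39 under this fit. The latter value rests on that listed length, and whether its reads came from a transcript of this length was not tested. The other 9 called members, among them Rps28 (0.22, adjusted p = 0.0723) and Rpl26 (0.35, adjusted p = 0.0806), did not keep the call. Whether the length trend comes from RNA quality, library preparation or the genotype was not tested.

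**Figure D3:**
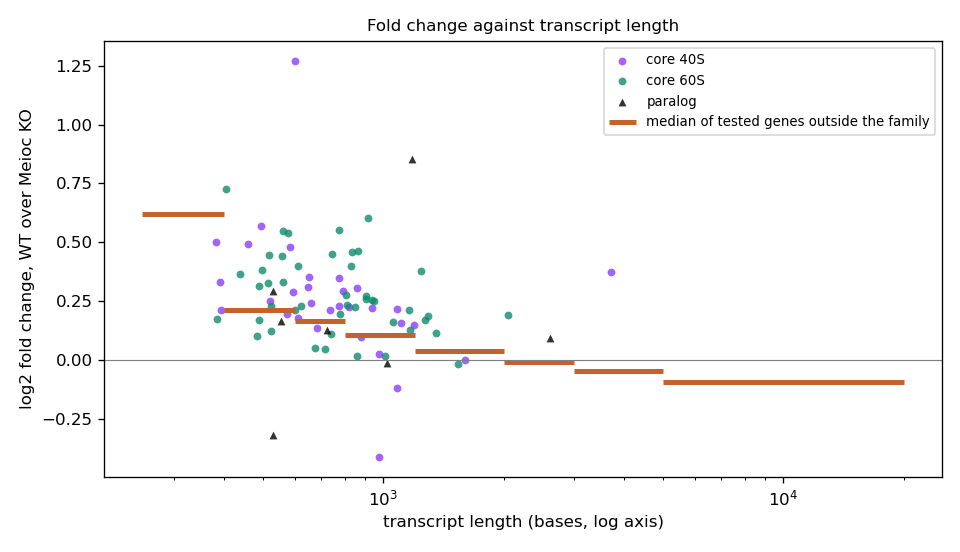
The log2 fold change of each tested member against its transcript length in bases on a log axis, with core 40S genes in purple, core 60S genes in green, paralogs as black triangles and, as orange lines, the median of tested genes outside the family in each length range. The orange medians fall from 0.62 under 400 bases to -0.092 at 5000 bases or more, and most members lie between 400 and 1200 bases, at or above them.

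The unit used also moved the values. On log2(TPM + 1) the core median was -0.0048, and the median of all tested genes was -0.226. Relative to all tested genes the core members therefore lay 0.22 higher on TPM and 0.24 higher on counts. By limma on log2(TPM + 1), 3 core members were called higher (3.9%, Rps18 and Rpl36 among them), where 3.23% of all tested genes were. Rps3a1 alone of the core members was called lower (1.3%), where 15.3% of all tested genes were. All 17 members called higher on counts had a positive fold change on TPM, but 37 of the 77 core members changed sign. The share of all calls that were higher in wild type was 70.0% in the main test, 47.5% when counts were scaled by library size only and 17.4% on log2(TPM + 1).

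The value of Rps18 is given with that of a near-identical gene. Rps18 (chr17:33951999-33956001 on GRCm38, minus strand) encodes a small subunit protein that contacts the large subunit. It was at 299.8, 331.7, 297.5 and 193.4 CPM in wild type and at 192.8, 72.7 and 83.0 CPM in the null, with a log2 fold change of 1.27 ± 0.32 (SE, adjusted p = 0.0365). The groups were barely apart, with wild-type replicate 4 and null replicate 1 nearly equal. Gm11361 (chr13:28257528-28258134, plus strand) is a single-exon gene annotated with the same coding length of 456 bases and shares 72.2% of the 31-base words of Rps18. It was at 2.21, 0.767, 2.43 and 102.0 CPM in wild type and at 90.1, 166.7 and 216.0 CPM in the null, so it was high in the same 4 libraries in which Rps18 was low. Its own log2 fold change was -2.51 ± 1.18 (SE, adjusted p = 0.186).

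The annotated Rps18-201 and Gm11361-201 transcripts aligned over 540 bases without a gap and differed at 4 of them (99.3% identity). The differences, with the Rps18 base first and positions counted from 1 at the 5′ end of Rps18-201, were C54T in the 5′ UTR and T68A, A228C and A394C in the coding sequence. A read of 50 bases that lies within the 540 aligned bases and covers none of these positions matches both genes. The 51 coding bases centred on A228C and on A394C are shown because these positions separate the genes, with the differing base in capitals. The first pair is exon 3 of Rps18 (chr17:33952498-33952548, GRCm38, minus strand) and the aligned stretch of Gm11361 (chr13:28257781-28257831, plus strand), and the second pair is exon 4 of Rps18 (chr17:33952242-33952292, minus strand) and chr13:28257947-28257997 (plus strand).
Rps18 exon 3: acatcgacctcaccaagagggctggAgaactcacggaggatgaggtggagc
Gm11361: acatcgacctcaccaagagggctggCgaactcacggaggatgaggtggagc
Rps18 exon 4: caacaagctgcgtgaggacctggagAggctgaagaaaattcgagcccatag
Gm11361: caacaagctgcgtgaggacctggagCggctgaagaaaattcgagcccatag

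The sum of Rps18 and its listed copies Gm11361 and Gm10260 differed far less between the groups. It lay between 295.4 and 332.8 CPM in the wild-type libraries, or 307.5 ± 17.1 (SD, n = 4), and was 283.0, 239.7 and 299.3 CPM in the null, or 274.0 ± 30.8 (SD, n = 3). The groups overlapped. With each member's listed copies added to it in the count test, a setting chosen after the data were seen, Rps18 had a log2 fold change of 0.17 ± 0.091 (SE, adjusted p = 0.248) and was no longer called. With the copies added, 16 core members (20.8%) were called higher, where 7.79% of all tested genes were, and the other 17 calls of the full fit held.

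Rpl19, a large subunit gene on the same chromosome as Meioc and 4.63 megabases from it, showed the same split of libraries between its transcripts. Rpl19-201 was at 209.0, 240.6, 239.5 and 114.3 CPM in wild type and at 119.3, 44.0 and 47.4 CPM in the null. Rpl19-202, which has another first exon, was listed at 0 in wild-type replicates 1 to 3, at 85.0 CPM in wild-type replicate 4 and at 88.9, 108.0 and 80.9 CPM in the null. As for Rps18, wild-type replicate 4 and null replicate 1 were alike and null replicates 2 and 3 went further. The gene as a whole was not called (0.45 ± 0.15, SE, adjusted p = 0.0845). What sets this split, for either gene, was not tested. The Rps18-201 transcript is 600 bases long in the deposited tables and 560 bases in the annotation aligned here, so the authors' counts rest on a transcript model that differs from the one shown.

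**Figure D4:**
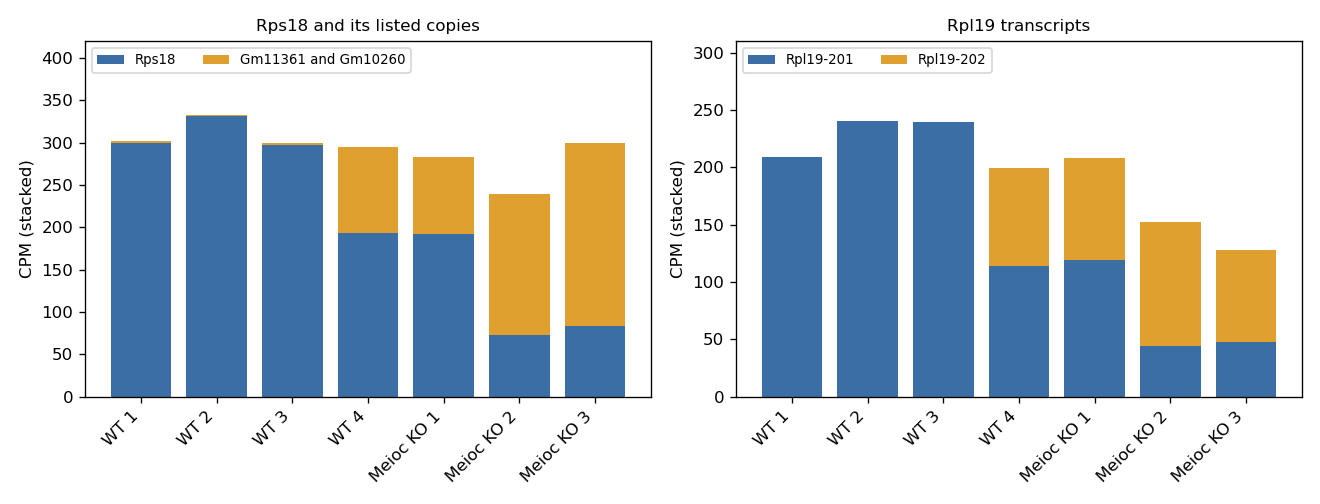
Stacked CPM in each library of Rps18 and its listed copies (left) and of the transcripts Rpl19-201 and Rpl19-202 of Rpl19 (right), 1 bar per library. The orange part, the Rps18 copies or Rpl19-202, is near 0 in wild-type replicates 1 to 3 and between 80.9 and 216.2 CPM in the other 4 libraries, while the summed Rps18 bars stay between 239.7 and 332.8 CPM.

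Other members share sequence with listed copies too, and how reads were divided between them was not examined. Counting only copies outside the family, 12 core members had a listed copy that holds at least 40% of their 31-base words. Rps27 shares 64.5% of its words with the paralog Rps27rt, itself a member and at 0 counts. Of the 12, Rps12 had fewer counts than its copy: Rps12 was at no more than 73.6 CPM and Rps12-ps3 at 329.0 to 422.3 CPM. Its log2 fold change went from 0.48 (adjusted p = 0.0543) alone to 0.16 (adjusted p = 0.237) with the copy added. For Rpl13a it went from 0.23 to 0.29 with Gm45713 added (adjusted p = 0.0577), and for Rpl35 from 0.25 to 0.26 with Gm2000 added. For Rpl10 it went from 0.22 to 0.12 with Rpl10-ps3 added (adjusted p = 0.481). Wild-type replicate 3 had the highest Rpl10, at 266.6 CPM, and the lowest Rpl10-ps3, at 85.0 CPM. Members were also grouped by shared sequence. The 20 core members that share under 30% of their words had a median log2 fold change of 0.26 and all 20 were positive, with 3 called higher, and the 24 that share at least 60% had a median of 0.26 with 7 called higher and 1 lower. With the length trend removed the medians of these 20, 33 and 24 members were 0.11, 0.088 and 0.12. Under that fit 1, 2 and 5 were called higher (5.0%, 6.06% and 20.8%), against 8.52% of all tested genes. On log2(TPM + 1) the medians were 0.0019, -0.028 and 0.025. By limma 0, 0 and 3 were called higher (12.5% of the 24), against 3.23% of all tested genes. At an unadjusted p under 0.05 in either direction there were 1, 4 and 7 (5.0%, 12.1% and 29.2%), against 40.4% of all tested genes. The part of shared sequence in the result was not tested.

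The acidic stalk, where RPLP0 holds dimers of RPLP1 and RPLP2 that recruit elongation factors, had 1 of 3 genes called higher. Of all core members 22.1% were called higher, and of all tested genes 7.77%. Rplp1 was at 137.9, 153.2, 153.6 and 124.3 CPM in wild type and at 120.6, 97.2 and 110.0 CPM in the null (0.38 ± 0.11, SE, adjusted p = 0.0476). Rplp2 did not overlap either, with 203.5 to 215.1 CPM in wild type and 181.8 to 197.6 CPM in the null, but was not called (0.17 ± 0.069, SE, adjusted p = 0.135). Rplp0 overlapped, with 753.7 to 784.2 CPM in wild type and 669.7 to 780.2 CPM in the null (0.11 ± 0.072, SE, adjusted p = 0.318).

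None of the 4 X-linked core genes was called by edgeR, and 1 of the 4, Rpl39, had an unadjusted p under 0.05 and was called by DESeq2, which called 28 core members (36.4%) and 10.7% of all tested genes higher. Rpl39, of the peptide exit tunnel, was at 102.7, 115.7, 104.1 and 101.4 CPM in wild type and at 94.4, 64.7 and 81.7 CPM in the null (0.40 ± 0.12, SE, adjusted p = 0.0624), without overlap. Rpl10 ranged from 204.5 to 266.6 CPM in wild type and from 161.7 to 231.5 CPM in the null (0.22 ± 0.13, SE, adjusted p = 0.29). Rps4x (0.026 ± 0.095, SE, adjusted p = 0.878) and Rpl36a (0.10 ± 0.11, SE, adjusted p = 0.584) overlapped as well. The X-linked median of 0.16 lay below the core median of 0.23, a difference that was not tested. With listed copies added, the X-linked median was 0.11, the core median 0.23 and the value of Rpl10 0.12.

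Some ribosomal proteins are made fused to ubiquitin or a similar protein, and RACK1 binds the ribosome without carrying a ribosomal protein symbol. Rps27a, ubiquitin fused to a small subunit protein, did not overlap between the groups but was not called (0.29 ± 0.10, SE, adjusted p = 0.0951). Rack1, a signalling scaffold on the small subunit, was at 0.20 ± 0.075 (SE, adjusted p = 0.116) and Fau, a ubiquitin-like fusion, at 0.13 ± 0.11 (SE, adjusted p = 0.43).

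The paralogs were less abundant than their core genes, and edgeR and DESeq2 called 0 of the 7 tested. At an unadjusted p under 0.05 in either direction there were 3 (42.9%) and 1 (14.3%), against 30.3% and 29.9% of all tested genes. Rpl36al had a mean of 616.4 TPM and Rps27l, induced by p53, of 577.8 TPM. Rpl39l followed at 140.9 TPM, Rpl22l1 at 65.2 TPM, Rpl7l1 at 42.4 TPM, Rpl10l at 34.3 TPM and Rpl3l, known from heart and skeletal muscle, at 1.92 TPM. Rps27rt at 0 counts allows up to 0.151 to 0.236 CPM per library, the value of 3 counts, for counting error only. Of the words of Rps27rt, 91.6% were also found in Rps27, and how reads were divided between these genes was not tested. The range is therefore not an upper limit on the expression of Rps27rt.

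Rpl22l1 was the paralog that stood below the rest. It was at 7.88, 6.90, 6.74 and 8.55 CPM in wild type and at 9.05, 9.97 and 9.22 CPM in the null, so every null library was above every wild-type library. The log2 fold change was -0.32 ± 0.14 (SE, adjusted p = 0.156) in the main test and -0.54 (adjusted p = 0.047) with the length trend removed. By limma on log2(TPM + 1) it was -0.63 (adjusted p = 0.0217), where all tested genes had a median of -0.226. Of all tested genes, 4.28% were called lower with the length trend removed and 15.3% on log2(TPM + 1). Its core gene Rpl22, a large subunit protein that binds RNA outside the ribosome too, was at 340.2 to 389.4 CPM in wild type and at 228.6 to 340.4 CPM in the null and was not called (0.31 ± 0.12, SE, adjusted p = 0.126).

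Of the germline paralogs, Rpl39l was at 22.1, 21.7, 21.2 and 20.5 CPM in wild type and at 18.8, 18.1 and 20.1 CPM in the null. The groups were just apart, and the log2 fold change was 0.17 ± 0.093 (SE, adjusted p = 0.258). Rpl10l was at 18.3, 14.6, 14.6 and 14.6 CPM in wild type and at 15.6, 15.3 and 16.1 CPM in the null (-0.014 ± 0.12, SE, adjusted p = 0.948), with wild-type replicate 1 above all others. Rps27l (0.29 ± 0.11, SE, adjusted p = 0.107) and Rpl3l (0.85 ± 0.37, SE, adjusted p = 0.157) did not overlap between the groups, and Rpl36al (0.13 ± 0.099, SE, adjusted p = 0.411) and Rpl7l1 (0.094 ± 0.10, SE, adjusted p = 0.569) did. Rpl3l was at 0.578 to 2.84 CPM, so its value rests on few counts.

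The balance between paralog and core gene was compared in 7 pairs as the log2 ratio of their CPM, with 0.5 CPM added to each. Groups were compared by exact permutation (two-sided, 35 assignments of 4 and 3 libraries). The smallest p this allows is 0.0571, so no pair could pass 0.05. Rpl22l1 over Rpl22 reached that smallest value: the log2 ratio was -5.40, -5.72, -5.56 and -5.24 in wild type and -4.93, -4.45 and -5.13 in the null, a difference of -0.64 (exact p = 0.0571, 0.399 adjusted over the 7 pairs). All null ratios were above all wild-type ratios, that is, with relatively more paralog. The difference was -0.25 for Rpl39l over Rpl39 (exact p = 0.229), -0.21 for Rps27l over Rps27 (exact p = 0.171), -0.25 for Rpl10l over Rpl10 (exact p = 0.286) and 0.45 for Rpl3l over Rpl3 (exact p = 0.114). It was -0.036 for Rpl7l1 over Rpl7 (exact p = 0.857) and 0.028 for Rpl36al over Rpl36a (exact p = 0.629). Adjusted over the pairs, these 6 had p-values between 0.399 and 0.857.

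**Figure D5:**
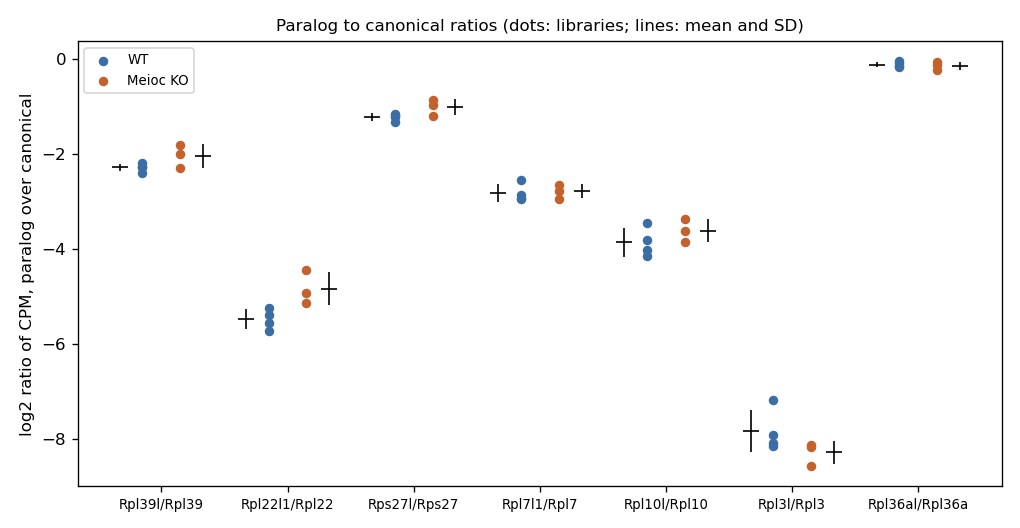
The log2 ratio of CPM of each of 7 paralogs to its core gene, with 1 dot per library (wild type in blue, Meioc-null in orange) and a line for the mean and SD of each group. Only for Rpl22l1 over Rpl22 do all 3 null dots lie above all 4 wild-type dots, and Rpl36al is the paralog closest to its core gene, with ratios between -0.22 and -0.043.

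The other parts of the translation machinery were read from lists by role. Mitochondrial ribosomal protein genes, whose products form the separate ribosome of the mitochondrion, had a median log2 fold change of 0.19, above 0 for 66 of 78. For 35 (44.9%) every wild-type library lay above every null library in CPM, against 49.4% of core members and 15.4% of all tested genes. For 0 every wild-type library lay below. By edgeR 7 of the 78 (8.97%) were called higher and 0 lower, close to the 7.77% of all tested genes called higher. At an unadjusted p under 0.05 in either direction there were 32 (41.0%, against 30.3% of all tested genes), and DESeq2 called 12 higher (15.4%, against 10.7%) and 0 lower. Mrpl17 had the largest change at 40.9, 54.0, 60.8 and 61.8 CPM in wild type against 37.1, 30.9 and 32.2 CPM in the null (0.71 ± 0.14, SE, adjusted p = 0.0194), followed by Mrps18c at 0.51 ± 0.12 (SE, adjusted p = 0.0286). With the length trend removed, their median was 0.078 and 3 were called higher (3.85%, against 8.52% of all tested genes).

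Genes of translation factors and other proteins whose mRNAs are known TOP mRNAs had a median log2 fold change of 0.041 over 20 genes. By edgeR 0 of the 20 were called in either direction, where 7.77% of all tested genes were called higher and 3.33% lower. At an unadjusted p under 0.05 edgeR had 4 of the 20 in either direction, a smaller share than the 30.3% of all tested genes. DESeq2 called 1 of the 20 higher and 1 lower, smaller shares than the 10.7% and 6.42% of all tested genes. These 20 genes are longer than the core members, with a median length of 1578 bases. Tested genes outside the family of 1200 to 2000 bases had a median of 0.037. With the length trend removed the median of the 20 was -0.0061, against 0.10 for the core members. The difference between the lists was not tested. Of 14 regulators of TOP mRNAs and of mTOR signalling, Larp1b alone was called higher in wild type (7.14%, against 7.77% of all tested genes), at 99.1, 125.0, 150.7 and 170.2 CPM against 85.3, 86.5 and 84.4 CPM (0.67 ± 0.16, SE, adjusted p = 0.0286). Larp1, which binds the TOP sequence, was not called (-0.28 ± 0.13, SE, adjusted p = 0.185) and was highest in null replicate 2, at 189.3 CPM, with the other 6 libraries between 113.2 and 134.8 CPM.

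Of 54 ribosome biogenesis genes, 3 were called higher (5.56%) and 1 lower (1.85%) in wild type, below the 7.77% and 3.33% of all tested genes, and their median was 0.043. Ltv1, needed for assembly of the small subunit, was at 100.9, 127.1, 125.2 and 134.3 CPM in wild type and at 81.9, 64.0 and 82.3 CPM in the null (0.68 ± 0.12, SE, adjusted p = 0.0162). Taf1b, of the RNA polymerase I initiation factor, was at 0.56 ± 0.11 (SE, adjusted p = 0.018) and Snu13, of the box C/D snoRNPs, at 0.50 ± 0.11 (SE, adjusted p = 0.0235). The gene called lower was Noc2l, at 94.7, 83.3, 76.5 and 80.2 CPM in wild type against 103.1, 112.5 and 105.9 CPM in the null (-0.36 ± 0.089, SE, adjusted p = 0.0333).

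The start of the transcript was read in the RefSeq promoter table (GRCm38.p6), which held 65 of the 85 members, 57 of them core. A C at an annotated start followed by at least 4 pyrimidines, the form of a TOP sequence, was found in 13 of the 57 core members (22.8%) and in 3.01% of the 27025 genes in the table. Annotated starts can lie some bases from the true one, and within 3 bases of the start the counts were 23 core members (40.4%) and 13.5% of genes. The 6 windows below were chosen to show the run in called and uncalled members, beside a paralog without it at the annotated start. Each shows 15 bases before and 15 from the annotated start, on the strand of the gene, with the pyrimidine run from the start in capitals.
Rps18, chr17:33955651-33955680, minus strand: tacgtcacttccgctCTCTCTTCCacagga
Rps15a, chr7:118116133-118116162, minus strand: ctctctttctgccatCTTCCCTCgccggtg
Rps27, chr3:90213634-90213663, minus strand: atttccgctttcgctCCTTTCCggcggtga
Rplp2, chr7:141447636-141447665, plus strand: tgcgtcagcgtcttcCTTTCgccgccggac
Rpl14, chr9:120571502-120571531, plus strand: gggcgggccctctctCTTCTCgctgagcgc
Rpl22l1, chr3:28805493-28805522, plus strand: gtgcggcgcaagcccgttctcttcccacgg

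Rps18, Rps15a and Rps27 were called higher in wild type, and Rplp2 and Rpl14 were not called. Rpl22l1 has a G at its annotated start. A C followed by at least 4 pyrimidines begins 3 bases further on, so it meets the looser rule of within 3 bases. The 13 core members with the run at the start had a median log2 fold change of 0.25, with 3 called higher, and the 44 without it 0.22, with 7 called higher. Of all core members 22.1% were called higher, and of all tested genes 7.77%. Rps18 is among those called with the run, and it was no longer called with its listed copies added. The ETS motif CCGGAAG, searched on both strands of the 300 bases, was in 24 of the 57 core members (42.1%) and in 9.93% of all genes. Core members with it had a median of 0.21 and those without it 0.23. The TATA box letters TATAAA were in 6 core members (10.5%) and in 15.7% of all genes. These matches describe the sequences only.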

How the data were processed

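Libraries were total RNA, depleted of ribosomal RNA, without poly(A) selection. The authors trimmed reads with cutadapt 1.8 and ran kallisto 0.44.0, with bias correction and strand, on GENCODE Basic vM15. They deposited estimated counts, the transcript length and TPM, renormalized over protein-coding transcripts. Here both were summed by gene (GENCODE vM21; 119 of 43139 transcripts, at most 0.282% of counts, were unmatched and left out). Rounded counts were tested with edgeR 4.0.16 (TMM, quasi-likelihood, Benjamini-Hochberg over 13630 genes) in R 4.3.3. CPM are TMM-scaled. Gene length is the TPM-weighted mean of its transcripts. Shared 31-base words were counted over vM21 transcripts. On simulated data for this comparison (13630 genes, 200 changed 1 log2 unit) edgeR recovered 188 with 12 false calls and DESeq2 1.42.0 recovered 196 with 44. No libraries matched within counting noise. A floor of 3 counts equals 0.151 to 0.236 CPM. Alternatives were DESeq2, other scalings and filters, limma 3.58.1 on TPM, a length correction, leaving out libraries, and a replicate block. Members and lists were chosen with earlier results of these data known. Named genes are the paralogs, X-linked and stalk genes, Rpsa, Rps27a, Fau, Rack1 and Larp1, the 5 core members highest and lowest by fold change and 5 by p, the 3 highest and lowest by TPM, and the 2 most changed of each list; others were chosen after their values were seen. Some genes that this rule names are not reported here. Other assays of the study were not analysed here.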

Additional observations from a re-analysis of the deposited data

Results flagged for a closer look

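Among the 34 values examined in the 4 wild-type libraries (33 named members and the share of counts), 1 had a library far from the others, and chance alone flags about 1 in 20. Rpl10l was at 18.3 CPM in wild-type replicate 1, where the other 3 wild-type libraries were each at 14.6 CPM and the null libraries between 15.3 and 16.1 CPM. The gap made up 0.978 of the wild-type range. Groups of 3 were not examined in this way.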

How the results depend on the processing

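Core members called higher in wild type numbered 17 in the main test, 28 with DESeq2, 10 with library size only, 3 by limma on log2(TPM + 1) and 3 on log2(TPM + 0.1), 8 with the length trend removed, and 0 to 28 when a library was left out. The shares of all tested genes called higher were 7.77%, 10.7%, 5.97%, 3.23%, 3.25% and 8.52%, and 0.83% to 10.6% when a library was left out. Members called lower numbered 1, and 0 to 1 when a library was left out. Of all tested genes, 3.33% were called lower in the main test and 6.42% with DESeq2. The share was 15.3% on log2(TPM + 1) and 4.28% with the length trend removed. All tested genes called numbered 1513, with 2331 for DESeq2, 2522 and 2506 on log2(TPM + 1) and log2(TPM + 0.1), and 131 to 2172 without a library. The core median of 0.23 became 0.16 with library size only, -0.0048 on both TPM scales and 0.10 with the length trend removed; all-gene medians there were -0.083, -0.226, -0.246 and -0.019. The difference in share was -0.069 percentage points on TPM. The cause of these shifts was not tested, apart from the fewer samples or the other scale that define each setting.

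With the replicate number as a block, 1 core member was called higher (0.69% of all tested genes were), 0 lower and 109 genes in all. At an unadjusted p under 0.05, 35 core members were higher (45.5%, against 11.6% of all tested genes). The numbers do not pair the pups (correlations of same-numbered libraries -0.012, -0.089 and -0.168, none the best of its null library). Rpl10l was at 0.0096 and Rpl4 at 0.0026 under the block.

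Rpl22l1 passed the threshold at -0.63 on log2(TPM + 1), -0.64 on log2(TPM + 0.1) and -0.54 with the length trend removed. Some values changed sign. On log2(TPM + 1) and log2(TPM + 0.1) they were -0.0011 and -0.0011 for Rpl10, -0.235 and -0.236 for Rpl14, -0.176 and -0.176 for Rpl36a, -0.16 and -0.16 for Rpl36al, -0.0933 and -0.094 for Rpl39l, -0.0722 and -0.0729 for Rpl5, -0.145 and -0.149 for Rpl7l1, -0.142 and -0.142 for Rplp0, -0.154 and -0.155 for Rplp2, -0.0977 and -0.0977 for Rps24, -0.229 and -0.229 for Rps4x, and -0.24 and -0.24 for Rpsa. With the length trend removed they were -0.0944 for Rpl14, -0.134 for Rpl36a, -0.0217 for Rpl36al, -0.041 for Rpl39l, -0.0673 for Rplp2, -0.0052 for Rps24, -0.0854 for Rps4x and -0.0597 for Rpsa. With library size only they were -0.0592 for Rpl14, -0.0522 for Rps4x and -0.0751 for Rpsa. Rpsa was also at -0.0094 with DESeq2, -0.0093 with RLE, -0.0097 with TMM without the family, -0.00015 with no TPM filter and -0.0011 with at least 10 counts in 3 libraries. Leaving out a library gave -0.10 to 0.015 for Rpl10l, -0.029 to 0.094 for Rpl14, -0.0072 to 0.215 for Rpl36a, -0.088 to 0.077 for Rpl4, -0.060 to 0.076 for Rps4x, -0.056 to 0.090 for Rpsa, -0.127 to 0.037 for the Rpl7l1 to Rpl7 ratio and -0.015 to 0.065 for the Rpl36al to Rpl36a ratio.

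Among all values recomputed under the alternatives, 535 kept their direction and their side of the threshold or moved little, 91 no longer passed it, 5 newly passed it, 30 moved and 62 changed sign.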
